A study of Mus musculus with 16 samples.

Results

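Lumbar spinal cords of SOD1G93A transgenic mice that also carried the conditional deletion of Atg7 (cKO_SOD1) were compared with cords of mice that carried the deletion alone (cKO). These were 8 of the 16 libraries of the series, 4 per group, taken by genotype label, and 15426 of 23284 gene symbols had enough counts to be tested. All animals were 150 days old. Both groups were labelled Atg7 cKO, so the transgene was the only labelled difference between them. The remaining 8 libraries, cWT and cWT_SOD1 (4 each), had the Atg7 cWT genotype and were used here to estimate the spread and to ask whether the transgene effect differed between genotypes. The labels give the genotypes as Atg7 cWT and Atg7 cKO, read here as control and conditional knockout. The series title places the inhibition of autophagy in motor neurons, and the Cre driver is not given in the sources used here. RNA came from whole dissected cord, in which motor neurons are a small part of the cells.

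Atg7 encodes the E1-like enzyme that activates the ubiquitin-like proteins ATG12 and LC3, and without it a cell cannot build normal autophagosomes. SOD1G93A is a mutant form of human superoxide dismutase 1 that misfolds, kills motor neurons and paralyses mice, and it is widely used to model amyotrophic lateral sclerosis. In that model fast motor neurons are lost before slow ones, microglia leave their resting state and switch on phagocytic and lysosomal genes, and astrocytes become reactive. The comparison asks which transcripts differ with the transgene when both groups carry the deletion.

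The libraries held 16956436 to 20892530 counts each. Each group held 2 males and 2 females, read from Xist and Y-linked genes since the labels give no sex. The first principal component of the 8 libraries held 40% of the variance and separated the groups, with cKO between −27.96 and −10.02 and cKO_SOD1 between 14.95 and 25.09. The second held 20% and separated the sexes. Atg7 itself did not mark the comparison: it stood at 28.3, 28.8, 28.4 and 26.4 CPM (counts scaled to the library total with TMM factors) in cKO and at 29.4, 20.4, 29.3 and 29.6 CPM in cKO_SOD1, a log2 difference of −0.04 (SE 0.12, adjusted p = 0.883). Both groups carry the deletion, so this level is no check of it. Mouse Sod1 was between 113 and 126 CPM in cKO and between 101 and 112 CPM in cKO_SOD1, a log2 difference of −0.18 (SE 0.06, adjusted p = 0.0880), and the human transgene transcript was not analysed here.

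Among the gene lists described below, falls with the transgene were most frequent in those of motor neurons and the axonal cytoskeleton. Rises were most frequent in microglial, interferon and reactive astrocyte lists. By edgeR's quasi-likelihood test 1123 genes, 7.28% of those tested, had an adjusted p below 0.05 and are called changed. Of these, 740 were higher (4.8%) and 383 lower (2.48%) in cKO_SOD1. The gene lists used below held 272 changed genes, 218 higher and 54 lower, and the other 851 were in no list. Most changed genes are therefore not described here by function. The rises were larger: 235 of the higher genes and 26 of the lower ones passed 2-fold, 44 and 4 passed 4-fold, and the median fold was 1.68 among higher and 1.25 among lower genes. Of the changed genes, 1088 also had no overlap between the 4 cKO and the 4 cKO_SOD1 libraries, a property that 20.9% of all genes tested had. These were 716 of the higher and 372 of the lower genes, against 9.91% and 11% of all genes tested in each direction. The changed genes nearest the threshold were Prex2 (log2 fold change 0.25), Gm10033 (−0.53) and Slc25a43 (1.25), and the nearest outside it were Hsd17b7 (−0.42), Adra2a (0.25) and Star (0.28). When only these 8 libraries were fitted, with their own smaller estimate of the spread, 2480 genes passed, 1235 higher and 1245 lower, and these held 1099 of the 1123. The share of changed genes that were higher was 65.9% with all 16 libraries and 49.8% with the 8. On the authors' FPKM scale 79.2% to 81.8% of the changed genes were higher, depending on pseudocount and filter. Leaving out cKO replicate 2 left 685 genes.

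**Figure D1:**
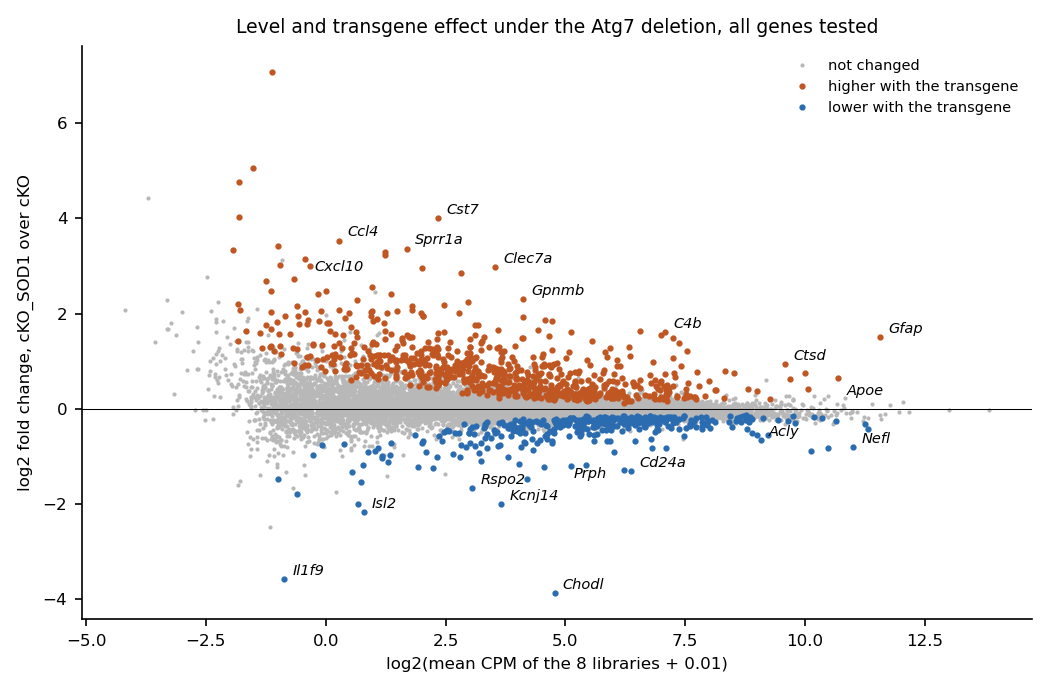
Log2 fold change of cKO_SOD1 over cKO (vertical axis) against log2 of the mean CPM of the 8 libraries plus 0.01 (horizontal axis), 1 point per gene tested, with changed genes in orange (740 higher) and blue (383 lower). The largest rises lie among weakly expressed genes, and Chodl has the lowest value among the changed genes.

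The balance of directions among changed genes differed with expression level. In the lowest quartile of expression level, with a median of 1.79 CPM, 7.05% were higher and 0.804% lower. In the highest quartile, with a median of 121 CPM, 2.64% were higher and 3.97% lower. Among the changed genes, the weakly expressed ones were thus mostly higher and the abundant ones more often lower. By chromosome the share of changed genes ran from 4.33% (chromosome 12) to 10% (chromosome 3).

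Motor neuron genes gave the clearest falls. Motor neurons use acetylcholine, are set up by the LIM-homeobox and Mnx1 transcription factors, and are divided into fast and slow types that differ in which muscle fibres they drive. Of 17 tested subtype and surface markers of motor neurons, 12 fell and none rose. The median log2 fold change was −0.69 against 0.00 over all genes. Because RNA came from the whole cord, fewer motor neurons and less RNA per motor neuron cannot be told apart, here or for any cell type below.

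Chodl (mm9 chromosome 16, 78931193 to 78951973), a membrane protein that marks fast motor neurons, had 52.0, 45.7, 55.3 and 51.5 CPM in cKO and 4.04, 3.82, 2.52 and 3.68 CPM in cKO_SOD1. The groups were far apart, 45.7 CPM being the lowest value without and 4.04 CPM the highest with the transgene. It fell by 3.87 on the log2 scale (SE 0.14, adjusted p = 3.6e-11), the largest fall among changed genes. Kcnj14, an inward-rectifier potassium channel of motor neurons, went from 19.2, 21.2, 23.7 and 17.0 CPM to 6.38, 4.77, 3.77 and 5.42 CPM, 4.004-fold lower (adjusted p = 4.11e-07). Rspo2, a secreted Wnt agonist, fell 3.17-fold from 12.6 ± 1.06 to 3.95 ± 0.289 CPM (SD, n = 4; edgeR adjusted p = 6.48e-08). The fast marker Mmp9, a matrix metalloproteinase whose level tracks the vulnerability of motor neurons in this model, moved less, from between 10.5 and 12.6 CPM to between 5.54 and 6.91 CPM. Calca, the calcitonin gene-related peptide precursor, fell 2.25-fold, and the paralog Calcb fell 1.65-fold. The remaining fallen members were Cd24a, Uts2d, Stk32a, Sv2b, Chrm2 and Tnfrsf21. Sv2a, listed as a slow motor neuron marker, stayed at a log2 fold change of 0.00. Whole-cord RNA does not tell which neurons made it, so this value does not describe slow motor neurons. Ret and Gfra1, receptor subunits for glial cell line-derived factors, were at −0.07 and −0.11, and none of the 3 passed the test. The 12 were 8 without cKO replicate 1.

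Genes of acetylcholine handling formed the next group, and 4 of 11 fell. Slc18a3 encodes the vesicular acetylcholine transporter. It stood at 64.1, 58.3, 65.0 and 52.2 CPM in cKO and at 29.4, 26.1, 19.8 and 29.9 CPM in cKO_SOD1, without overlap and 2.28-fold lower (adjusted p = 7e-06). Chat, the enzyme that makes acetylcholine, fell 2.35-fold from 32.8 ± 2.52 to 14.0 ± 1.72 CPM (SD, n = 4). In mm9 the Slc18a3 gene lies inside the span of Chat on chromosome 14, so their reads may have been shared in counting. The choline transporter Slc5a7 fell 1.78-fold and the orphan vesicular transporter Slc10a4 2.77-fold. Ache, the esterase that ends the signal and is made by many neurons, had a log2 fold change of −0.26 that did not pass (adjusted p = 0.111), although its libraries did not overlap. All 11 genes had negative estimates.

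Of the 15 transcription factors of motor neurons, 4 fell and 1 rose. Isl2 was at 2.49, 2.65, 3.49 and 2.63 CPM in cKO and at 0.703, 0.419, 0.373 and 0.995 CPM in cKO_SOD1, 4.51-fold lower (adjusted p = 5.23e-05). Mnx1 fell 2.89-fold, Lhx4 1.99-fold and Isl1 by 0.89 on the log2 scale. These low levels rest on few counts. In each case all 4 transgenic libraries were below all 4 others, as in 372 of the 383 genes called lower and 11% of all genes tested. This property comes from the same values as the test and is no separate support. Runx1, which is also a factor of activated microglia, was the member that rose (log2 fold change 0.95, adjusted p = 0.0152). The estrogen-related receptors Esrrg and Esrrb were at −0.21 and −0.20 and did not pass.

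**Figure D2:**
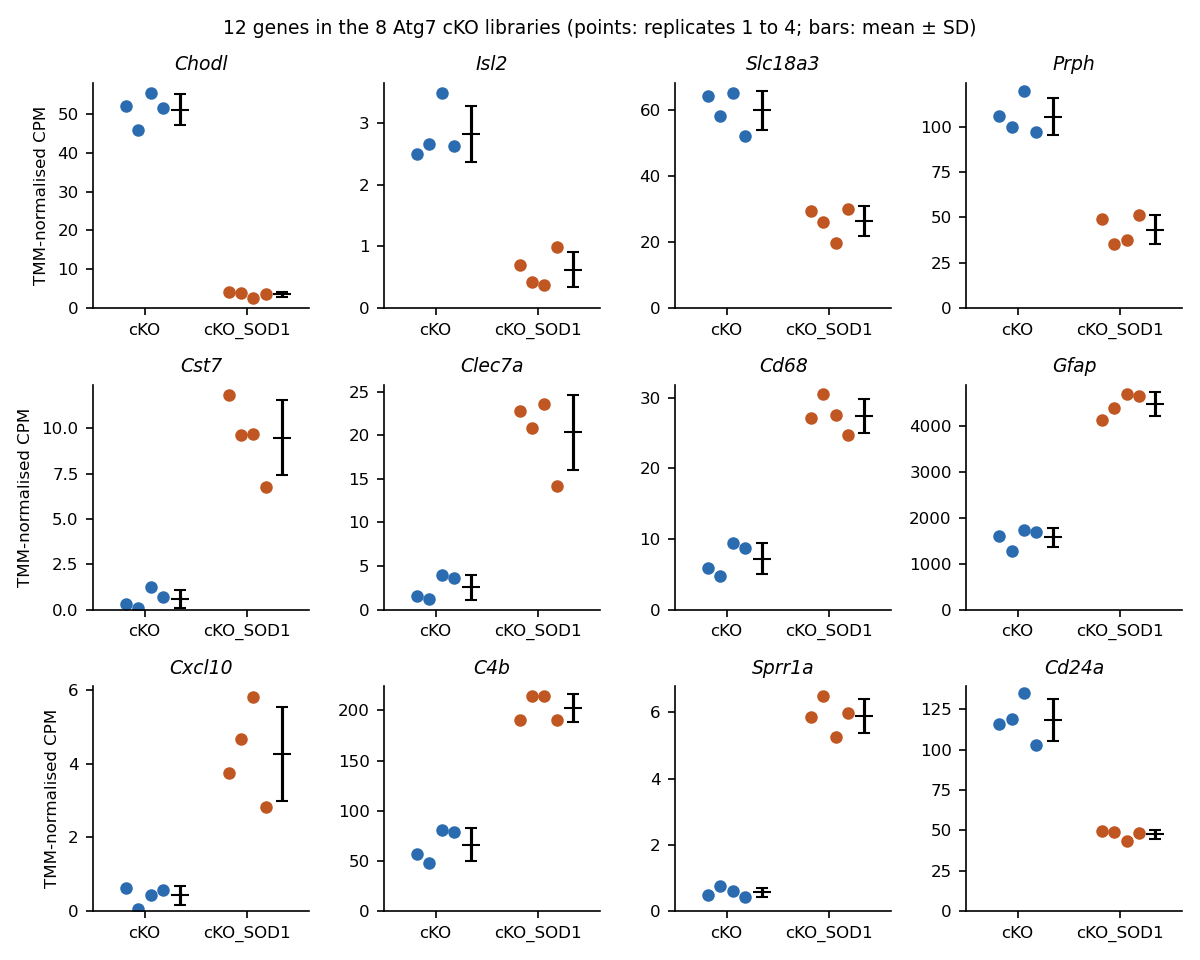
TMM-normalised CPM (vertical axes, linear and starting at 0) of 12 genes in the 4 cKO libraries (blue) and the 4 cKO_SOD1 libraries (orange), with the mean ± SD beside each group. In each of the 12 panels the groups do not overlap, and Chodl drops from about the 45.7 to 55.3 CPM of cKO to at most 4.04 CPM.

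Neurofilaments and other parts of the axonal cytoskeleton fell together, 12 of 18, with a median log2 fold change of −0.35. Nefl, the light neurofilament subunit, had 2706, 2542, 2640 and 2517 CPM in cKO and 1540, 1506, 1368 and 1567 CPM in cKO_SOD1. Its loss in CPM was the largest among changed genes without overlap. The middle and heavy subunits Nefm and Nefh fell 1.76-fold and 1.84-fold. Per transcript length Nefl was also among the most abundant neuronal transcripts, at an FPKM (fragments scaled to transcript length and library total) of 1360 ± 36.1 in cKO and 801 ± 40.4 in cKO_SOD1 (SD, n = 4). Prph encodes peripherin, an intermediate filament of motor neurons and other neurons with peripheral axons. It fell further than the neurofilaments, 2.44-fold, from between 97.0 and 120 CPM to between 35.0 and 51.4 CPM (adjusted p = 6.3e-06). Stmn2, a microtubule regulator of growing axons, fell by 0.51 and the neuronal tubulin Tubb3 by 0.54 on the log2 scale. The axonal kinesin Kif5a fell by 0.32 (adjusted p = 0.0327), a call that was lost when any 1 of the 8 cKO and cKO_SOD1 libraries was left out. The tubulins Tuba1a and Tubb2b and the tau gene Mapt had estimates between −0.02 and 0.00. The count was 8 without cKO replicate 1.

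Few genes shared by all neurons passed the test. Of 26 pan-neuronal and synaptic genes 1 fell, Rbfox3, which encodes the nuclear antigen NeuN, at a log2 fold change of −0.20 (adjusted p = 0.0289). The Rbfox3 call was lost under 12 of the alternative settings and left-out libraries. Over all genes tested the share that fell was 2.48%. Still, 24 of the 26 estimates were negative, and in the fit of the 8 libraries alone 13 of them passed, so small reductions near the limit of the test were common. Of 27 spinal interneuron genes none fell and 1 rose, the secreted guidance protein Reln, from between 143 and 155 CPM to between 165 and 189 CPM. The inhibitory markers Gad1, Gad2, Slc6a5 and Slc32a1 had log2 fold changes between −0.09 and 0.00. Among 32 ion channels, 4 fell (Kcnk9, Kcnab1, Cacna2d3 and Kcnq5) and 1 rose. The riser was Kcns1, a silent potassium channel subunit, from between 7.21 and 8.17 CPM to between 11.7 and 15.4 CPM. The 4 were 2 without cKO replicate 2 or cKO_SOD1 replicate 3, and 14 in the fit of the 8 libraries.

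Genes that neurons switch on after axon injury rose in part, 7 of 26, and 2 fell. Sprr1a, a small proline-rich protein of regenerating neurons, went from 0.478, 0.743, 0.610 and 0.439 CPM to 5.85, 6.49, 5.26 and 5.97 CPM, 10.3-fold higher (adjusted p = 6.58e-06). Atf3, the stress-induced transcription factor of injured neurons, rose 4.51-fold from between 1.72 and 2.39 CPM to between 7.87 and 10.4 CPM. Csf1, the cytokine through which injured neurons signal to microglia, rose 1.47-fold and the cytokine feedback inhibitor Socs3 by 1.55 on the log2 scale. Some genes are members of several lists, and Csf1 also counts among the disease-associated microglia and the cytokine genes below. Whole-cord RNA does not tell which cells made it. The others that rose were Plaur, Rab32 and Tubb6. Gap43, Jun, Sox11, Gal and Vip, all genes of the same programme, had log2 fold changes between 0.06 and 0.25 and did not pass. The median over the list was 0.22. The 2 that fell were Lifr, a receptor subunit for leukemia inhibitory factor, at −0.35, and Fgf21, described at the end.

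The Sprr1a promoter is shown because this gene rose most within the injury list and holds the AP-1 motif TGANTCA, the binding letters of Fos, Jun and Atf3 dimers, more than once. The stretch below, from RefSeq for GRCm38.p6, is chr3:92485961-92486057 on the minus strand, written 5′ to 3′, 176 to 80 bases upstream of the start site. Capitals mark the motif.

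Sprr1a: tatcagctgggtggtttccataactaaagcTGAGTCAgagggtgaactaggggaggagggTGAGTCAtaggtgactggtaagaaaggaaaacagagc

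Searched in windows of 300 bases (250 upstream to 50 downstream of the start), TGANTCA occurred in 3 of 21 injury genes with a RefSeq promoter entry, namely Sprr1a, Nts and Plaur. It occurred in 6.44% of the 10875 tested genes with an entry. The motif is a palindrome, so a single search covers both strands. Plaur, the urokinase receptor, rose by 1.14 on the log2 scale and the neuropeptide precursor Nts had 0.04, which did not pass.

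Few stress genes of the endoplasmic reticulum passed the test. None of 29 tested genes of the integrated stress response changed by edgeR's test, with a median log2 fold change of 0.07. At an unadjusted p under 0.05 there were 11, and DESeq2 called 2, both lower. In the fit of the 8 libraries 2 were higher and 6 lower. Ddit3, the transcription factor CHOP, was at 20.4 ± 1.91 CPM in cKO and 22.0 ± 0.726 CPM in cKO_SOD1 (SD, n = 4), and Asns, an amino acid synthesis gene under Atf4, had −0.20 (adjusted p = 0.0716). Nupr1 had the highest estimate of this list, 0.86, which did not pass (adjusted p = 0.170). Of 23 chaperones and unfolded protein response genes, 1 rose, the degradation factor Edem1 (log2 fold change 0.38). Among 21 heat shock genes the small heat shock gene Hspb6 rose by 0.74 and Bag3, a co-chaperone that feeds aggregates to autophagy, fell by 0.36. Hspb1 was higher in all 4 transgenic libraries with an estimate of 0.91 but did not pass (adjusted p = 0.0778). Of 25 metallothionein and Nrf2 target genes, 6 rose, with Mt1 going from between 180 and 266 CPM to between 363 and 454 CPM, and with Mt2, Prdx6, Hmox1, Ftl1 and Nfe2l2 beside it. Gsta4 and Gclm fell slightly, at −0.22 and −0.20, and neither of these calls held when cKO replicate 1 was left out.

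Microglial genes made up the strongest rises. Microglia are the resident macrophages of the cord, and in neurodegeneration they take on a disease-associated state that depends on the receptor Trem2 and its adaptor Tyrobp. Of 26 tested genes of that state, 21 rose and none fell, with a median log2 fold change of 1.76. Cst7 (mm9 chromosome 2, 150396151 to 150404680), which encodes cystatin F, an inhibitor of lysosomal cathepsins, went from 0.318, 0.106, 1.22 and 0.683 CPM to 11.8, 9.64, 9.69 and 6.76 CPM. The groups were well apart, and its log2 fold change of 4.01 (SE 0.38, adjusted p = 6.3e-06) was the highest among changed genes averaging at least 1 CPM over the 8 libraries. Without cKO replicate 3, the highest cKO library, it was 4.62. Clec7a, a pattern recognition lectin, rose 7.87-fold from between 1.17 and 3.99 CPM to between 14.2 and 23.7 CPM. The integrin Itgax rose 7.19-fold, from 1.73 ± 1.39 to 12.5 ± 3.60 CPM, and the glycoprotein Gpnmb 4.92-fold, from 5.84 ± 2.40 to 28.7 ± 4.08 CPM (SD, n = 4). In Clec7a, Itgax, Cst7 and Gpnmb the lowest cKO library was replicate 2, and that library had the lowest mean of the 4 cKO libraries in 33 of the 51 gene lists.

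Trem2 itself was at 9.24, 8.38, 11.6 and 12.1 CPM in cKO and at 34.02, 31.0, 32.0 and 33.4 CPM in cKO_SOD1, and Tyrobp rose 2.89-fold. The lipid gene Apoe rose from between 1242 and 1372 CPM to between 1925 and 2175 CPM, a log2 difference of 0.64 (SE 0.17, adjusted p = 0.0325). That call was lost in each of the 8 fits that left out a cKO or cKO_SOD1 library, although the groups did not overlap. The members that did not pass were Spp1, Ank, Fabp5, Igf1 and Atp6v0d2. Spp1, which encodes osteopontin and is made by motor neurons as well as by activated microglia, had 163, 147, 151 and 167 CPM in cKO and 161, 160, 155 and 159 CPM in cKO_SOD1. That gave a log2 difference of 0.01 (SE 0.15, adjusted p = 0.973).

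Resting-state markers of microglia rose too. Of 20 such genes 15 rose and none fell, with a median of 0.63. Cx3cr1, the fractalkine receptor, went from between 41.1 and 57.9 CPM to between 80.8 and 94.1 CPM, and Fcrls rose 3.58-fold. The purinergic receptor P2ry12 and Tmem119, both lost from microglia in several disease states, were at 28.9 ± 4.29 and 35.3 ± 4.22 CPM (P2ry12) and at 20.2 ± 2.59 and 25.4 ± 3.37 CPM (Tmem119) in cKO and cKO_SOD1 (SD, n = 4), not distinguishable by edgeR's test. Among 30 myeloid surface receptors 17 rose, among them Slamf9 (log2 fold change 2.02), Cd84 (1.51), the macrophage marker Emr1 (1.19) and Clec5a (1.14). Of 22 Toll-like receptors and adaptors 12 rose, led by Cd180 (2.01) and including Tlr2 (1.31) and Tlr13 (1.22), and Tlr5, the flagellin receptor, fell from 2.69 ± 0.113 to 1.52 ± 0.363 CPM. Of the 8 subunits and partners of the phagocyte oxidase, which makes superoxide, 5 rose, among them Cybb, Cyba, Rac2 and Hvcn1.

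Complement genes rose in 9 of 22 cases. C4b had 57.1, 47.5, 81.3 and 79.3 CPM in cKO and 191, 214, 214 and 190 CPM in cKO_SOD1, 3.05-fold higher (adjusted p = 2.1e-06), and C4a is a near copy of it, so reads may have been split between them. C4a had a log2 fold change of 0.12 from the counts, not past the test, whereas its FPKM was 1.77 ± 0.447 in cKO and 5.77 ± 0.53 in cKO_SOD1 (SD, n = 4), so its value is uncertain. C3, the central component, rose 2.92-fold from between 37.3 and 92.7 CPM to between 155 and 209 CPM. The 3 chains of C1q rose by 1.202 to 1.309 on the log2 scale, and the receptors C3ar1 and Itgb2 by 1.77 and 1.49. Cd55, a membrane protein that protects cells from complement, fell 1.78-fold, from 13.2 ± 1.97 to 7.44 ± 1.58 CPM (SD, n = 4; edgeR adjusted p = 0.00116).

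Interferon-stimulated genes were the list with the most rises, 27 of 35, and none fell (median log2 fold change 0.96). These genes are switched on when type I interferon drives a transcription factor complex that holds IRF9 onto a response element in their promoters. Cxcl10 (mm9 chromosome 5, 92775665 to 92777915), a chemokine that draws T cells, had 0.637, 0.0531, 0.443 and 0.585 CPM in cKO and 3.75, 4.66, 5.82 and 2.83 CPM in cKO_SOD1. It was 9.76-fold higher (adjusted p = 4.04e-05). Ifit3, an antiviral RNA-binding protein, went from 9.02, 7.48, 7.48 and 12.5 CPM to 20.8, 22.0, 38.0 and 21.04 CPM, and Usp18, which damps the receptor, from between 1.17 and 2.23 CPM to between 3.48 and 6.29 CPM. Irf9 rose by 0.67, the RNA sensor Ifih1 by 0.80 and the secreted Lgals3bp by 1.03 on the log2 scale. Stat2 did not pass, at 0.17. Among the transgenic libraries cKO_SOD1 replicate 3 stood highest for the whole list: its mean over the list was 1.32 log2 units above the cKO mean, against 0.708 to 0.822 in the others. Without it 22 of the 35 genes rose.

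Promoters of 5 of the genes that rose are shown because they carry the letters of that response element, GAAANNGAA, more than once or, for Cxcl10, in the gene with the largest rise. All are from RefSeq for GRCm38.p6, written 5′ to 3′ in the direction of the gene. Capitals mark each match on either strand, where TTCNNTTTC is the motif read on the opposite strand, and matches that overlap run together.

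Isg15: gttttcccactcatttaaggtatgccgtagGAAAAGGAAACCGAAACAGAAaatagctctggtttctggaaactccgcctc
Ifit1: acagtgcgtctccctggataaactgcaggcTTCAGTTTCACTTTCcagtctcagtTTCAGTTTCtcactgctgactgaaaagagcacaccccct
Ifit3: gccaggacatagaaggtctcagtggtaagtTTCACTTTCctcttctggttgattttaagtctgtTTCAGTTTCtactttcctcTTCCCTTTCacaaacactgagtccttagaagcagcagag
Irgm1: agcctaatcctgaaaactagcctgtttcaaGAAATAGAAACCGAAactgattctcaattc
Cxcl10: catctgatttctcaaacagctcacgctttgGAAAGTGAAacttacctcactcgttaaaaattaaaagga

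The Isg15 stretch is chr4:156200846-156200926 (minus strand), and its first match starts 78 bases upstream of the start site. The Ifit1 stretch is chr19:34640750-34640843 and the Ifit3 stretch chr19:34583344-34583465 (both plus strand), with first matches 109 and 155 bases upstream. The Irgm1 stretch is chr11:48871421-48871480 (minus strand, 30 bases upstream) and the Cxcl10 stretch chr5:92349064-92349132 (minus strand, 213 bases upstream). Of the 26 interferon genes with an entry, 18 held at least 1 match in 300 bases, and of the 21 with an entry that rose 16 did. Over the 10875 tested genes with an entry the share was 8.51%. Isg15 rose 2.18-fold, Ifit1 by 1.05 on the log2 scale and Irgm1 1.54-fold, so matches were found at small and large rises alike. Another motif, TGATGNAA, the core letters of the C/EBP-ATF response element, was searched in the integrated stress response list. It occurred in 8 of 25 of these genes with an entry, and none of them rose. Its share over the tested genes with an entry was 2.85%. A match is a string of letters and says nothing here about binding.

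Genes of antigen presentation rose in 11 of 23 cases, all but 1 of which serve class I presentation or its control. B2m, the constant chain of class I molecules, went from between 103 and 125 CPM to between 176 and 213 CPM, and the peptide transporter Tap1, the immunoproteasome subunit Psmb8 and the trimming peptidase Erap1 rose by 0.87, 0.88 and 0.37 on the log2 scale. The class II genes Cd74, H2-Ab1, H2-Aa and H2-Eb1 had estimates between 0.04 and 0.49 and did not pass. Genes of the H2 family are near copies of one another, so single members are uncertain. The 11 were 6 without cKO replicate 2 and 7 without cKO_SOD1 replicate 2.

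Chemokines rose in 8 of 23 cases. Ccl3 went from between 0.265 and 0.721 CPM to between 3.63 and 5.03 CPM. Ccl4 had 14 counts in all cKO libraries together and 172 in cKO_SOD1, a ratio of 12 (95% counting interval 6.99 to 22.5). Ccl6 rose by 1.297, with 26.1 CPM in cKO_SOD1 replicate 1 and 12.6 to 17.3 CPM in the others. The number that rose was 5 when cKO replicate 1, 2 or 3 or cKO_SOD1 replicate 2 was left out. Of 35 genes of cytokines, inflammasomes and cell death 16 rose, among them Casp12 (0.79), the granulocyte factor receptor Csf3r (1.09) and Bcl2a1b (1.88), one of several near-identical copies. Il1b, Tnf and Il6 were too low to be tested, at 9, 6 and 8 counts over the cKO group and 28, 15 and 1 over the cKO_SOD1 group.

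Of 40 lysosomal genes 17 rose and none fell, with a median of 0.23. Ctsd, the aspartic protease cathepsin D, went from 527, 470, 563 and 539 CPM to 1064, 1043, 981 and 961 CPM, 1.93-fold higher (adjusted p = 0.000291). The scavenger receptor Cd68 rose 3.80-fold, progranulin (Grn) 2.17-fold and cathepsin S (Ctss) by 1.07 on the log2 scale. Over the list 35 of the 40 estimates were positive, and 25 genes were higher without overlap, against 9.91% of all genes tested. Lamp1, Psap and Tpp1 had estimates between 0.09 and 0.18 and did not pass, nor did the lysosomal regulators Tfeb (0.24) and Tfe3 (0.04). Of 18 subunits of the vacuolar proton pump 1 rose, Atp6v0a2 by 0.16, and 15 had negative estimates.

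Reactive astrocyte genes rose in 18 of 29 cases, with a median of 0.84. Gfap (mm9 chromosome 11, 102748650 to 102758514), the filament of reactive astrocytes, had 1592, 1278, 1726 and 1694 CPM in cKO and 4136, 4402, 4699 and 4651 CPM in cKO_SOD1. This was the largest gain in CPM among changed genes without overlap, and 2.84-fold (SE of the log2 fold change 0.10, adjusted p = 6.48e-08). Vim, a second filament of these cells, rose 2.82-fold, the hyaluronan receptor Cd44 2.36-fold and the oncostatin receptor Osmr by 1.33 on the log2 scale. Timp1 rose 7.79-fold and the transglutaminase Tgm1 by 2.55. Lcn2, a lipocalin often taken as a marker of toxic astrocytes, had 2.60, 1.49, 3.27 and 3.27 CPM in cKO and 2.34, 2.41, 1.82 and 3.48 CPM in cKO_SOD1, fully overlapping (adjusted p = 0.961). Of 20 genes of resting astrocytes 3 rose, the water channel Aqp4 (1.68-fold), Mlc1 and Sox9, and the amino acid transporter Slc7a10 fell by 0.26. That call was lost under 20 of the alternative settings and left-out libraries. Slc1a2, Kcnj10 and Glul were between −0.05 and 0.08.

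**Figure D3:**
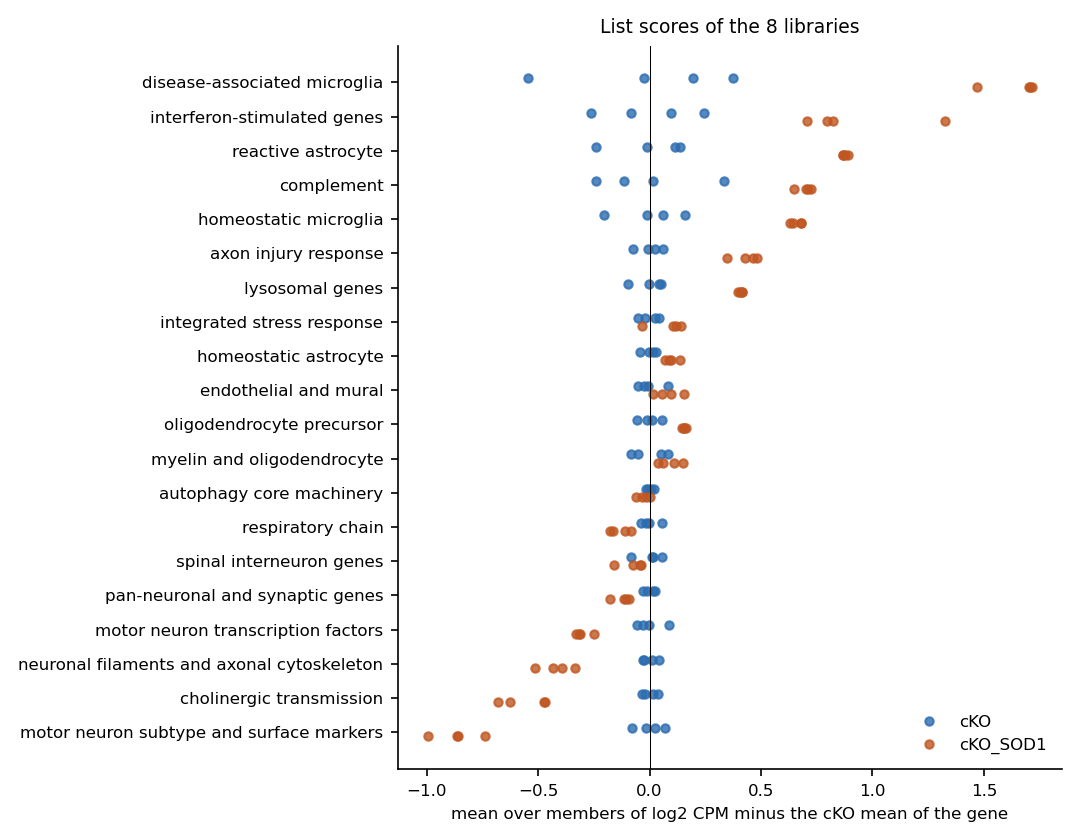
Score of 20 gene lists in each of the 8 libraries (horizontal axis, average over tested members of log2 CPM relative to the cKO mean of each gene), blue for cKO and orange for cKO_SOD1. Disease-associated microglia lie between 1.47 and 1.72 in cKO_SOD1 and between −0.55 and 0.38 in cKO, and the motor neuron markers between −0.99 and −0.74 in cKO_SOD1.

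Proliferation genes rose in 7 of 24 cases, and all 24 estimates were positive. Top2a, a topoisomerase of dividing cells, went from between 1.01 and 2.49 CPM to between 4.35 and 5.31 CPM, and Mki67 from between 1.22 and 3.61 CPM to between 4.61 and 8.01 CPM. Cdk1 and Ccnd1 rose by 1.11 and 0.35. The 7 were 4 without cKO replicate 2 or 3 or without cKO_SOD1 replicate 1 or 3.

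In the lists of oligodendrocyte, vascular and ependymal cells the share that rose was near the 4.8% of all genes tested, or 0. Of 24 myelin and oligodendrocyte genes 1 rose, the tight junction gene Cldn11 (0.41), and Mbp and Mobp both had −0.02. Of 17 precursor genes none changed by edgeR's test or by DESeq2 and 6 had an unadjusted p under 0.05, with 15 positive estimates and 4 that rose in the fit of the 8 libraries. Of 23 endothelial and mural genes 1 rose (Tagln, 0.68) and of 19 ependymal genes 1 rose (Rfx2, 0.74, lost without any 1 of 6 of the 8 libraries). Of 18 lymphocyte genes 15 were too low to test, with at most 30 counts in a group, and the T cell chains Cd3d, Cd3e and Cd3g had 2, 7 and 2 counts in cKO and 6, 6 and 1 in cKO_SOD1. None of the 3 tested lymphocyte genes passed by edgeR or DESeq2 (1 had an unadjusted p under 0.05), and their summed levels were 0.743 to 1.01 CPM in cKO and 1.17 to 2.83 CPM in cKO_SOD1. Neutrophil and monocyte genes summed to 0.955 to 6.24 CPM in cKO and 0.733 to 5.87 CPM in cKO_SOD1, and none of the 4 tested passed by edgeR or DESeq2 or had an unadjusted p under 0.05. The monocyte receptor Ccr2 was at or below 0.926 CPM in every library. The Schwann cell list summed to 315 to 341 CPM in cKO and 311 to 491 CPM in cKO_SOD1, and 2 of its 12 genes rose, Egr2 and Sox2, both of which other cells also express. Egr2 was highest in cKO_SOD1 replicate 1, the library with the highest Schwann cell sum, and its part in that result was not tested. Dorsal root ganglion genes summed to 8.24 to 10.2 and 5.97 to 8.31 CPM, and Isl1, shared with motor neurons, was the 1 of 5 that fell. The meningeal and choroid plexus list summed to 198 to 257 and 249 to 332 CPM, and its 1 member that rose was the folate receptor Folr1, from at most 0.341 to at least 0.547 CPM, a call lost without cKO replicate 1 or cKO_SOD1 replicate 1. The red blood cell enzyme Alas2, the 1 tested gene of its list, and 5 skeletal muscle genes (80 to 90 and 76 to 80 CPM in sum) did not pass by edgeR or DESeq2, nor at an unadjusted p under 0.05.

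Autophagy genes came next. None of 31 genes of the core machinery changed by edgeR's test, 5 had an unadjusted p under 0.05 and DESeq2 called 1, and estimates ran from −0.16 (Gabarapl1) to 0.27 (Atg4a). Of 15 selective autophagy receptors Bnip3 and Sqstm1 fell. Sqstm1 encodes p62, the receptor that gathers ubiquitinated cargo, and it went from 600, 605, 598 and 553 CPM to 516, 519, 501 and 539 CPM, a log2 difference of −0.18 (SE 0.05, adjusted p = 0.0357). The groups did not overlap, but the call was lost under 12 of the alternative settings and left-out libraries, the replicate block among them. Neither gene passed without cKO replicate 1.

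All 32 nuclear-encoded respiratory chain genes had negative estimates, with a median of −0.13. None passed by edgeR's test, 15 had an unadjusted p under 0.05, DESeq2 called 5, and 19 fell in the fit of the 8 libraries. Of 30 constitutive proteasome genes 27 estimates were negative, none passed by edgeR or DESeq2, 4 had an unadjusted p under 0.05, and 5 fell in the fit of the 8 libraries. Among 26 genes of cholesterol synthesis and handling, 3 synthesis genes fell (Fdps, Acat2 and Dhcr7) and 23 estimates were negative, while the efflux transporter Abca1 (0.61) and the oxysterol enzyme Ch25h (0.98) rose. The 3 depended on the libraries: 11 fell without cKO_SOD1 replicate 4, in which Fdps was 28.3 CPM against 17.9 to 20.3 CPM in the other transgenic libraries, and 1 fell without cKO replicate 1 or 4 or cKO_SOD1 replicate 1, 2 or 3. Acly, which makes cytosolic acetyl-CoA for lipids and acetylcholine, fell 1.58-fold, from between 640 and 694 CPM to between 371 and 456 CPM (adjusted p = 8.57e-06). Of 25 genes of lipid droplets, fatty acids and apolipoproteins 4 rose and 1 fell. The lipoprotein lipase Lpl rose by 1.86, the prostaglandin D synthase Hpgds by 1.18 and the lipid droplet protein Plin2 by 0.59 on the log2 scale, with Apoe as the fourth, and Cpt1a fell by 0.32.

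Matrix and growth factor genes rose in part. Over all genes tested 4.8% rose and 2.48% fell. Of 20 matrix metalloproteinases and inhibitors 3 rose, Timp1, Mmp19 (1.51) and Adamts1 (0.41), and 7 did without cWT_SOD1 replicate 1 and 5 without cWT_SOD1 replicate 2. Of 19 immediate early genes 2 rose, Egr2 (1.62) and Ier5 (0.40), and of 12 noncoding RNAs none did by edgeR or DESeq2 (3 at an unadjusted p under 0.05), Malat1 having 0.61 (adjusted p = 0.155). Of 21 collagens and basement membrane genes 5 rose, among them Col16a1 (0.80) and Fn1 (0.73, with 113 CPM in cKO_SOD1 replicate 4 and 67.6 to 74.5 CPM in the others). The 5 were 3 without cKO_SOD1 replicate 2 or 3. Of 26 growth factor genes 4 rose: Fgf2 (1.14), the hepatocyte growth factor receptor Met (0.81), Tgfb1 (0.79) and Igfbp5 (0.72). Of 30 genes linked to amyotrophic lateral sclerosis 5 fell by small amounts, among them Tuba4a, Kif5a, Fig4 and 3110043O21Rik (the mouse gene of C9orf72), and none of the 5 passed without cKO replicate 1 or 2 or without cKO_SOD1 replicate 1 or 3. None of 16 Hox genes that mark lumbar position passed by edgeR or DESeq2, 5 had an unadjusted p under 0.05, 2 fell in the fit of the 8 libraries, and 15 estimates were negative. Their summed level was 733 to 808 CPM in cKO and 698 to 781 CPM in cKO_SOD1.

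**Figure D4:**
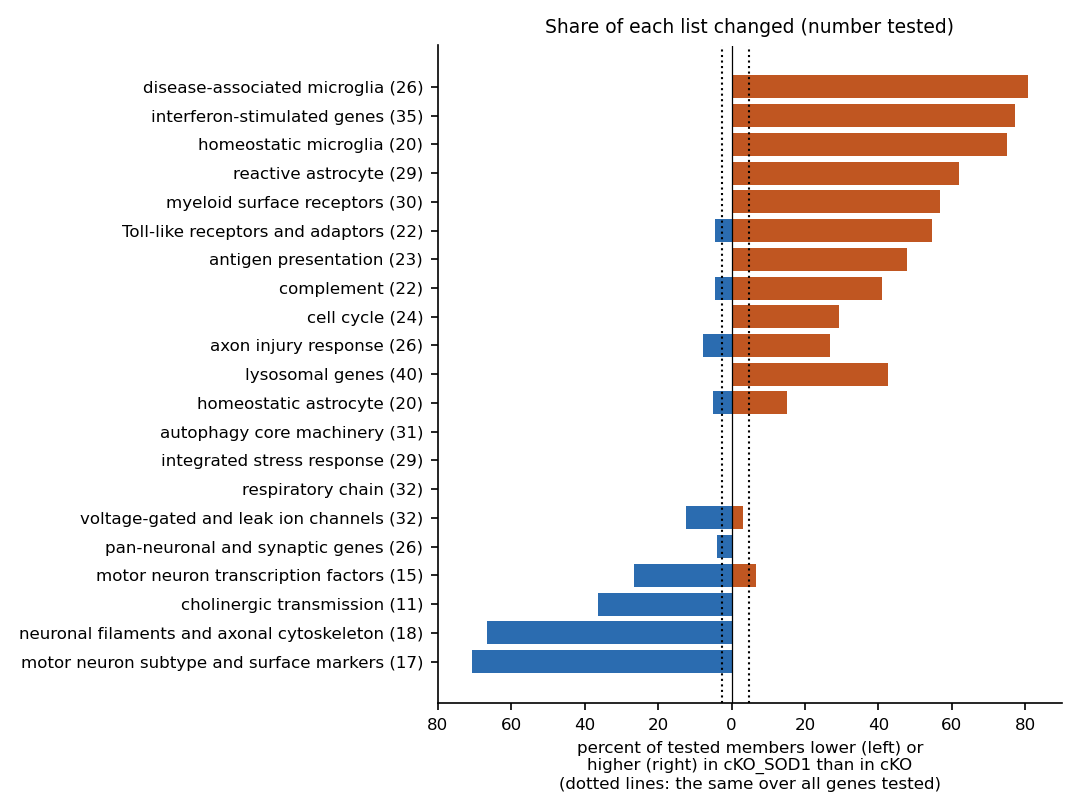
Share of the tested members of 21 gene lists that were lower (blue, left) or higher (orange, right) in cKO_SOD1 than in cKO, in percent, with dotted lines at the 2.48% and 4.8% of all genes tested. Motor neuron and cytoskeletal lists extend to the left and glial, interferon and lysosomal lists to the right, and 3 lists have no changed member.

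The transgene effect under the deletion was set against that in cWT, which rests on other animals. In cWT the same fit called 66.3% of genes, and 1081 of the 1123 genes were called there with the same sign. The cWT_SOD1 libraries were less alike than those of the other groups. Their median within-group SD of log2 CPM over genes was 0.152, against 0.109 in cWT, 0.093 in cKO and 0.0984 in cKO_SOD1. The fit gave all groups a shared estimate of the spread. Across all 15426 genes the log2 fold changes of the 2 genotypes had a Pearson r of 0.769 and a Spearman rho of 0.688, a description over genes that share libraries within each genotype. The interaction, which tests the difference between the 2 effects, called 45% of all genes, 6949 in number. With a single library left out it called between 6248 (without cWT_SOD1 replicate 3) and 7654 (without cWT_SOD1 replicate 1). Of the 1123, 910 differed between genotypes, and 883 of those had the same sign in both and the smaller effect under the deletion. Among genes called in both genotypes with the same sign, the log2 fold change in cKO was a median of 0.358 of that in cWT for genes that rose and 0.429 for those that fell.

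For several of the motor neuron falls no difference between genotypes was found. Chodl had a log2 fold change of −3.87 in cKO and −3.94 in cWT, with an interaction of 0.07 (SE 0.21, adjusted p = 0.822). Isl2, Kcnj14, Mnx1, Chat and Prph had interactions of −0.06, 0.27, 0.55, 0.42 and −0.28, none past the test, with standard errors of 0.17 to 0.37. Others of the same lists did differ: Mmp9 fell by 0.92 in cKO and by 2.34 in cWT (interaction 1.42, adjusted p = 1.04e-06), and Lhx4 by 0.99 and 3.38. Of the 12 subtype and surface markers that fell, 9 had a called interaction, in either direction.

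Glial effects mostly differed. All 18 reactive astrocyte genes and 20 of the 21 disease-associated microglia genes that rose under the deletion had a called interaction with the smaller rise in cKO. Gpnmb rose by 2.30 in cKO and by 7.31 in cWT (interaction −5.01, SE 0.57, adjusted p = 6.72e-06). Spp1, flat at 0.01 in cKO, rose by 2.55 in cWT (interaction −2.53, SE 0.21, adjusted p = 3.45e-07), and Lcn2, at −0.08 in cKO, rose by 4.21. Of the 27 interferon genes that rose, 17 had a called interaction. Ifit3 was among the 10 that did not, at 1.48 in cKO and 1.61 in cWT, as were Usp18 (1.48 and 1.99) and Isg15 (1.12 and 1.68). The share of called genes with a called interaction was 81.0% over the 1123, and whether the interferon list differs from that was not tested.

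**Figure D5:**
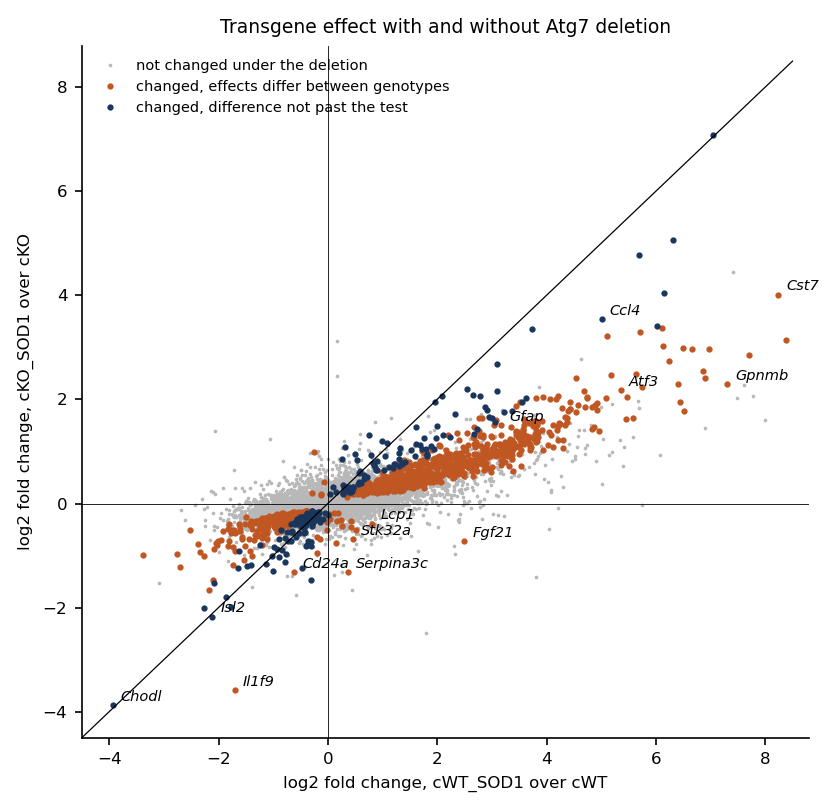
Log2 fold change of cKO_SOD1 over cKO (vertical axis) against that of cWT_SOD1 over cWT (horizontal axis), 1 point per gene, with the line of equal effects. Orange points changed under the deletion and differ between genotypes by the interaction test (910 genes), dark points changed without a called difference (213), and Chodl and Isl2 lie near the line while Cst7 and Gpnmb lie far below it.

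A small group went the other way. In 7 genes the effect had the same sign in both genotypes but was larger under the deletion. Cd24a (mm9 chromosome 10, 43298975 to 43304071), a glycoprotein anchored to the surface of neurons and other cells, had 116, 119, 135 and 103 CPM in cKO and 49.9, 48.7, 43.4 and 48.1 CPM in cKO_SOD1, 2.49-fold lower without overlap. In cWT it fell by 0.62 on the log2 scale against 1.31 here (interaction −0.69, SE 0.12, adjusted p = 0.000179). Layn, a hyaluronan receptor, fell by 0.94 here and had −0.19 in cWT (interaction adjusted p = 0.00106), and Pdgfd, a growth factor for mural cells, fell by 0.65 here and had −0.20 there. Il1f9, an interleukin of the IL-36 family, had 76 counts over the cKO group and 6 over the cKO_SOD1 group, a ratio of 12.9 (95% counting interval 5.67 to 36.3). Its interaction was −1.87 (adjusted p = 0.042).

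In 20 genes the 2 estimates had opposite signs with a called interaction. Serpina3c, which belongs to a family of near copies, fell by 1.32 under the deletion and had 0.36 in cWT (interaction −1.69, adjusted p = 0.00269). Lcp1, an actin-bundling protein best known from leukocytes, fell from 53.3, 48.1, 59.6 and 57.8 CPM to 42.5, 39.5, 41.1 and 44.4 CPM in these libraries and rose by 0.81 on the log2 scale in cWT. Serpinb6a fell by 0.44 and rose by 0.26 in cWT, and Stk32a, a kinase of fast motor neurons, fell by 0.69 and rose by 0.46. Fgf21 (mm9 chromosome 7, 52869260 to 52870860), a hormone of metabolic and mitochondrial stress, had 5.998, 3.82, 4.32 and 5.75 CPM in cKO and 3.28, 2.67, 2.61 and 3.48 CPM in cKO_SOD1. It fell by 0.73 (adjusted p = 0.0192) here and rose by 2.50 in cWT, where its means were 0.0815 CPM without and 0.501 CPM with the transgene. These cWT means rest on few counts, so the size of the rise there and of the interaction is uncertain. The Fgf21 level in each of the 8 libraries carrying the deletion was above both cWT means. Sqstm1, at −0.18 here, had 0.12 in cWT (interaction −0.31, adjusted p = 0.00241). Several of these calls are close to the threshold. Lcp1 lost its call without cKO replicate 3 or 4 or cKO_SOD1 replicate 2 or 3. Stk32a lost it when cKO replicate 1, 2 or 3 or cKO_SOD1 replicate 3 or 4 was left out, and Fgf21 without cKO replicate 1 or 4 or cKO_SOD1 replicate 2 or 3.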

How the data were processed

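Poly-A RNA of whole lumbar cord was sequenced with an Illumina TruSeq kit, per the labels' protocols. The authors deposited raw read counts per gene symbol and, separately, FPKM values on mm9. The tools named, per the submitters' processing notes, are Cufflinks 2.0.2, TopHat2 2.0.4 and bcl2fastq 1.8.4. How reads were counted, and whether by strand, is not given in the sources used, and overlapping or antisense genes may share reads.

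Counts of all 16 libraries were fitted with edgeR 4.0.16 in R 4.3.3 (TMM factors, quasi-likelihood F-test, 1 coefficient per group, genes kept by edgeR's own filter on low counts), and p-values were adjusted by Benjamini-Hochberg over the 15426 genes tested. All 16 were used so that the groups share 1 estimate of the spread. CPM are counts scaled to the library total with TMM factors. SE is that of the log2 fold change. The script was tested on simulated data. Counting intervals are exact at 95% and cover counting error only. Alternatives used limma 3.58.1, DESeq2 1.42.0 and limma on log2(FPKM + 0.1) or log2(FPKM + 1), a scale that understates changes of low genes.

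The series text calls the replicates biological. Same-numbered cKO and cKO_SOD1 libraries deviated from their group means with correlations of −0.0602, 0.196, −0.183 and 0.278. The positive values were between libraries of the same sex and the negative ones between libraries of opposite sex. They therefore cannot show whether the numbers pair animals. The main fit did not take the numbers as pairs, and the replicate block is given as an alternative. Genes were named by rule: Atg7 and Sod1, the 12 highest and 12 lowest folds at 1 CPM or more without overlap, the 8 largest gains and 8 largest losses in CPM, up to 4 changed genes per list by p (2 by p where none changed), and up to 10 with a larger effect than in cWT and 10 with opposite called effects. Other list members serve as examples picked after their values were seen. The comparison and its gene lists were chosen with earlier results of these data known, so list counts are descriptions. Gene positions are mm9, and promoters come from RefSeq for GRCm38.p6. Values of some list members are not reported here.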

Additional observations from a re-analysis of the deposited data

Results flagged for a closer look

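Among 348 groups of 4 libraries (174 named genes in cKO and in cKO_SOD1), 23 had a library whose gap to its nearest neighbour took up a share of the group's range above Dixon's 95% critical value. Chance gives about 1 such group in 20. For Atg7 this was cKO_SOD1 replicate 2, at 20.4 CPM against 29.3 to 29.6 CPM in the other 3 (share of the range 0.969). In cKO, replicate 3 stood apart as highest for Isl2 (0.841) and Stmn2 (0.83) and as lowest for Ier5 (0.856). Replicate 2 of cKO was lowest for Aqp4 (0.832) and highest for Malat1 (0.844). Replicate 4 of cKO was lowest for Bag3 (0.895), Sqstm1 (0.864) and Col12a1 (0.854) and highest for Ccr2 (0.862) and Sox2 (0.876). In cKO_SOD1, replicate 3 was highest for Rspo2 (0.928), Aqp4 (0.953), Ifih1 (0.841), Hpgds (0.924) and Col12a1 (0.904) and lowest for Rbfox3 (0.87). Replicate 2 of cKO_SOD1 was lowest for Serpina3c (0.936) and Slamf9 (0.885) and highest for Cybb (0.881). Replicate 4 of cKO_SOD1 was lowest for Csf3r (0.865) and Abca1 (0.93) and highest for Fn1 (0.848).

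The interaction, the transgene effect in cKO minus that in cWT on the log2 scale, passed edgeR's test for named genes whose effect was larger under the deletion or of opposite sign. With a larger fall under the deletion these were Cd24a (−0.69), Bag3 (−0.34), Layn (−0.75), Pdgfd (−0.45), Rab39 (−0.53), Il1f9 (−1.87) and Blvrb (−0.48). With called effects of opposite sign they were Lcp1 (−1.19), Serpinb6a (−0.69), Htatip2 (−0.74), Fgf21 (−3.22), Angptl2 (−1.02), Azi1 (0.48), Gem (−0.88), Gnpda2 (−0.38), Stk32a (−1.15) and Cpt1a (−0.57). The transgene call in cKO was lost under 17 of the alternative settings and left-out libraries for Azi1, 12 for Gnpda2, 9 for Lcp1 and 8 for Fgf21. For Gem and Stk32a it was lost under 6, for Angptl2 under 5, for Htatip2 under 2, and for Serpinb6a and Cpt1a under 1. Cpt1a, the carnitine transferase that admits fatty acids to mitochondria, had 86.3 ± 3.68 CPM in cKO and 69.0 ± 3.31 CPM in cKO_SOD1 (SD, n = 4).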

How the results depend on the processing

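The number of changed genes was 2480 with only the 8 libraries (1235 higher, 1245 lower) and 2264 (1217 and 1047) with limma-voom, groups weighted. In females alone it was 362 (277 and 85, interaction 4616) and in males alone 91 (62 and 29, interaction 2863), with 2 animals a group. On the FPKM scale 204 genes (pseudocount 0.1), 207 (pseudocount 1) and 199 (0.1, no filter) were lower. Leaving out 1 library gave 685 to 1643 changed genes, 465 to 1057 higher and 197 to 586 lower, each highest without cWT_SOD1 replicate 1. The lowest were without cKO replicate 2, except that of lower genes, which was without cKO_SOD1 replicate 3. The cause of these differences was not tested. With the replicate block, 1158 changed (747 higher, 411 lower), and 6936 interactions were called. Signs turned for 3 genes that never passed. Ccr2 had 0.083 with limma-voom, 0.32 in males, 0.019 on both log2(FPKM + 0.1) scales and −0.47 to 0.67 with 1 library left out. Atg7 had 0.11 in females and −0.085 to 0.073 with 1 library left out, and Ngp 0.47 in females and −0.62 to 0.34. Of 5792 values of named genes under the alternatives, 5259 kept direction and side of the threshold and 456 lost a call.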

Other observations

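Some genes, chosen after their values were seen and outside the lists except for the cytokine Osm, were close to absent without the transgene. Serpinf2, which encodes the plasmin inhibitor alpha-2-antiplasmin, had 0 counts in all 4 cKO libraries and 9, 14, 25 and 24 counts in the cKO_SOD1 libraries. It was at least 23.5-fold higher, with a floor of 3 counts for the cKO group. In cWT it had 3 counts over the group, and with the transgene 116, 114, 58 and 128 counts. Its interaction of 0.05 depends on the prior count and gives no size (adjusted p = 0.609). The collectin Colec10 had 1 count over the cKO group and 51 over the cKO_SOD1 group, a ratio of 50 (95% counting interval 8.58 to 2010), and the olfactory receptor gene Olfr111 had 1 and 42 (ratio 41.2, 7 to 1660). Osm, which encodes oncostatin M and whose receptor gene Osmr is described above, had 3 and 36 counts, a ratio of 11.8 (3.72 to 59.7).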
